A study of Homo sapiens with 4 samples.

Results

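CYTB, COX1, COX2, COX3, ATP6 and ATP8 are the mitochondrially encoded mRNAs of respiratory complexes III, IV and V. They were taken by name from the deposited gene tables, where mitochondrial symbols carry no prefix, and all 6 were found among 44715 gene symbols. They make up 6 of the 13 mRNAs and of the 37 genes that the RefSeq annotation places on the mitochondrial chromosome. The libraries come from RNA immunoprecipitation followed by sequencing (RIP-seq) in HEK293T, an established human line of embryonic kidney origin. RNA bound in native lysates was recovered with an antibody against PHGDH, the enzyme that opens the serine synthesis pathway, to ask whether PHGDH associates with RNA. There were 2 anti-PHGDH libraries and 2 control libraries made with an IgG antibody, all from untreated HEK293T lysates washed at high salt, and no library of the input lysate was analysed here. The submitters call the samples biological replicates, and the labels do not say whether they came from separate cultures. The p-values thus reflect only variation between these libraries, which limma took from the trend across genes and not gene by gene.

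Mitochondrial DNA is copied into long precursor transcripts from both strands, and most of the mRNAs are released by cutting at the tRNAs between them. No tRNA lies between ATP6 and COX3. All of the 6 mRNAs are read from the same precursor, the one that also yields the complex I mRNAs other than ND6. The proteins are the membrane cores that are made inside the organelle: cytochrome b of complex III, the catalytic subunits of cytochrome c oxidase and a pair of membrane subunits of ATP synthase. The remaining subunits of these complexes are nuclear genes whose mRNAs are translated in the cytosol.

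On the mitochondrial chromosome of GRCh38.p14, the RefSeq table places COX1 at bases 5904 to 7445, COX2 at 7586 to 8269, ATP8 at 8366 to 8572, ATP6 at 8527 to 9207, COX3 at 9207 to 9990 and CYTB at 14747 to 15887. The submitters' processing notes name the matching build hg38. Each is a protein-coding gene without introns, so reads from spliced and unspliced RNA cannot be told apart. ATP8 and ATP6 share 46 bases and ATP6 and COX3 share 1 base, since ATP8 and ATP6 are read from overlapping frames of a single mRNA. How reads in the shared stretch were assigned is not given in the sources used here, and the levels of ATP8 and ATP6 are uncertain to that extent. Nuclear DNA also holds near-identical copies of these genes. The RefSeq table lists 443 symbols of such pseudogenes, and 0 of them are in the deposited tables, so reads that match both places cannot be followed.

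The deposited values are CPM, a gene's reads scaled to a fixed total per library. Nearly all fall on steps of 1 read, so the read counts could be recovered. The libraries held from 1216477 to 3875746 reads assigned to genes. IgG replicate 1 stood apart: it listed 4148 genes above 0, against 14518 to 16767 in the other libraries, and 61.9% of the 9524 genes tested were at 0 in it. All 6 mRNAs had reads in that library, from 454 for ATP8 to 38435 for COX1. Of 6 genes set as HEK293T markers, from 0 to 3 were at 0 in a library, and their summed level was 372 and 843 CPM in anti-PHGDH libraries, against 1281 and 828 CPM in the controls. VIM, NEFM and NEFL were above 0 in all 4 libraries. Of 6 marker genes of blood, liver and connective tissue, from 4 to 6 were at 0 in a library.

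Together the 6 mRNAs took 16.4% and 5.98% of all reads in anti-PHGDH replicates 1 and 2, and 3.40% and 2.80% in IgG replicates 1 and 2. Both anti-PHGDH libraries lay above both IgG libraries. The sum averaged 111677 ± 73418 CPM across anti-PHGDH libraries and 31004 ± 4199 CPM in the controls (SD, n = 2 each). The spread between the anti-PHGDH libraries, 2.74-fold, exceeded the 1.76-fold distance from the lower anti-PHGDH to the higher IgG library. Within replicate number 1 the sum was 4.82 times as high with anti-PHGDH, and within number 2 it was 2.13 times as high. With 2 libraries against 2, an exact permutation test of a single value cannot go below p = 0.33.

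**Figure D1:**
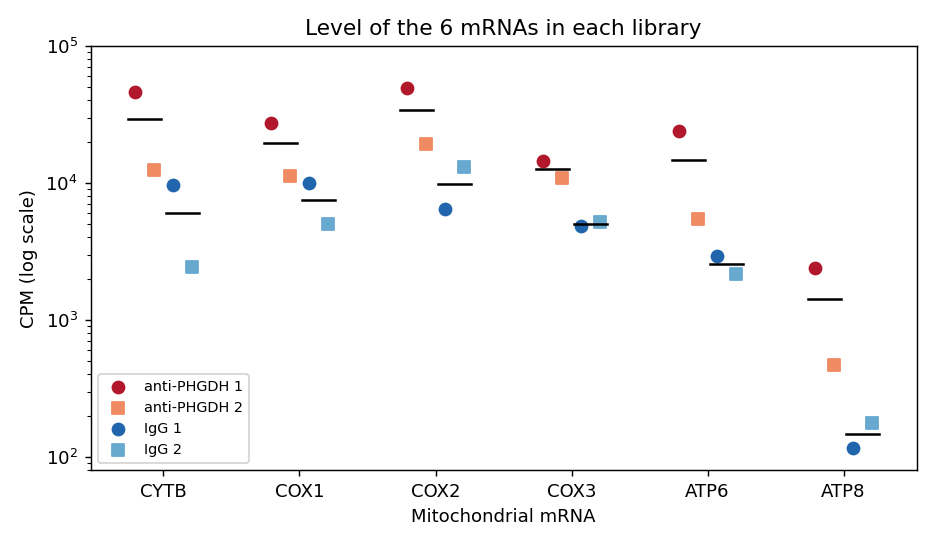
Level of each of the 6 mRNAs (CPM, log axis) in the 4 libraries; each point is a library and each black line is the mean of 2 libraries. Every anti-PHGDH point lies above both IgG points of the same gene, narrowly for COX1 (11267 against 9917 CPM), and anti-PHGDH replicate 1 is the highest of the 4 for each gene.

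Cytochrome b, the product of CYTB, carries electrons from ubiquinol to cytochrome c1 within complex III and is the only complex III subunit encoded in the organelle. CYTB reached 46215 CPM in anti-PHGDH replicate 1 and 12350.4 CPM in replicate 2, against 9685 and 2454 CPM in the 2 IgG libraries. The groups did not overlap, but the IgG libraries differed 3.95-fold, and the higher, replicate 1, came within 1.28-fold of anti-PHGDH replicate 2. Its mean was 29283 ± 23946 CPM, set against 6070 ± 5114 CPM in the controls (SD, n = 2 each). The fitted difference, on the log2(CPM + 1) scale, was 2.29 with an SE of 0.92 (limma adjusted p = 0.677). Of the 24 values of the 6 mRNAs, 1 was not a whole number of reads, and it was CYTB in IgG replicate 2 (3875.36 reads). It is 1 of 7 such values among the 50227 values above 0 in the tables, which also include the complex I mRNA ND4 in both anti-PHGDH libraries. With that value left out, the CYTB fold change was 1.30 (limma adjusted p = 0.677).

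COX1, COX2 and COX3 encode the core of cytochrome c oxidase: subunit I holds the haem and copper site where oxygen is reduced, subunit II takes electrons from cytochrome c, and subunit III is a structural partner of subunit I. The anti-PHGDH libraries held COX1 at 27581 and 11267 CPM, the IgG libraries at 9917 and 5006 CPM. Anti-PHGDH replicate 2 exceeded IgG replicate 1 by a factor of 1.14, the narrowest gap of the 6 mRNAs. The fitted log2 fold change of COX1 was 1.32 with an SE of 0.92 (limma adjusted p = 0.677).

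COX2 had the most reads of the 6 mRNAs in 3 of the 4 libraries, with COX1 and CYTB ahead of it in IgG replicate 1. Its anti-PHGDH levels were 48993 and 19302 CPM, and its IgG levels 6501 and 13031 CPM. It was the first of all genes by CPM in anti-PHGDH replicate 2 and the second in both anti-PHGDH replicate 1 and IgG replicate 2. The ratio of anti-PHGDH to IgG was 7.54 within replicate number 1 and 1.48 within number 2. From number 1 to number 2 the anti-PHGDH level was 2.54-fold lower and the IgG level 2.00-fold higher. The fit gave COX2 a log2 fold change of 1.74 with an SE of 0.88 (limma adjusted p = 0.677).

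COX3 was the most even of the 6 within groups. Levels of 14546 and 10883 CPM in the anti-PHGDH libraries stood against 4821 and 5215 CPM in the IgG libraries. Its anti-PHGDH mean was 12714 ± 2590 CPM and its IgG mean 5018 ± 278 CPM (SD, n = 2 each), and every anti-PHGDH library was at least 2.09 times as high as every IgG library. For COX3 the fitted log2 fold change was 1.33 with an SE of 0.95 (limma adjusted p = 0.677). The SE comes from the spread that the fit gives to genes of this level. The within-group SD of log2 values was 0.22 for COX3, the smallest of the 6, and 1.37 for CYTB, the largest.

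ATP6 encodes subunit a, which forms the proton path of ATP synthase beside the rotating c ring, and ATP8 a small membrane subunit of the same stator. For ATP6 the anti-PHGDH libraries gave 23858 and 5494 CPM, and the IgG libraries 2932 and 2153 CPM. The anti-PHGDH libraries differed 4.34-fold and the IgG libraries 1.36-fold. The log2 fold change of ATP6 was 2.19 with an SE of 0.99 (limma adjusted p = 0.677).

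ATP8 was the lowest of the 6 in each library. Its anti-PHGDH levels of 2397 and 465 CPM rest on 8069 and 566 reads, and its IgG levels of 117 and 177 CPM on 454 and 280 reads. The groups did not overlap, and the lower anti-PHGDH value was 2.62 times the higher IgG value. The log2 fold change of ATP8 was the highest of the 6, as was its SE (2.87, SE 1.36, limma adjusted p = 0.677).

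0 of the 6 mRNAs passed an adjusted p of 0.05 in limma, where 1 of the 9524 genes tested (0.0105%) was called higher and 0 were called lower. Before adjustment, with p under 0.05, limma gave 4 of the 6 and 261 genes in all (2.74%) in the higher direction. edgeR and DESeq2, run on the recovered reads, also called 0 of the 6 (edgeR adjusted p = 1.00 and DESeq2 adjusted p = 0.951 for each). The median log2 fold change of the 6 was 1.96, against 1.92 over all genes tested, so on this scale they sat at the middle of the table. CYTB, ATP6 and ATP8 were above the median of all genes and COX1, COX2 and COX3 below it. This place depends on the pseudocount, the constant added to CPM (1 here). At 0.1 the median of all genes was 3.38 and all 6 were below it. At 5 it was 1.02 and all 6 were above it. The median of the 6 stayed at 1.96 in both. All 6 had both anti-PHGDH libraries above both IgG libraries, as did 38.3% of all genes tested. COX3 and ATP8 were at least 2-fold higher in every pair of libraries, as were 9.3% of all genes tested.

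These backgrounds depend on IgG replicate 1, where most genes are at 0. The median fold of all genes tested was 12.3 within replicate number 1 and 1.13 within number 2, while that of the 6 mRNAs was 6.15 and 2.40. Within number 1, 6 of the 6 and 76.6% of all genes were at least 2-fold higher with anti-PHGDH. Within number 2, it was 5 of the 6 and 12.5% of all genes, COX2 being the exception. Without IgG replicate 1 the 6 mRNAs had a median log2 fold change of 2.11 and the whole table one of 0.14, and limma called 0 of the 6 and 99 genes higher. Centring each library on its median over the genes tested turned the log2 fold change of 5 of the 6 below 0, and ATP8 remained above 0 at 0.37. IgG replicate 1 has a median of 0 there, so centring subtracts a constant from each fold change.

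**Figure D2:**
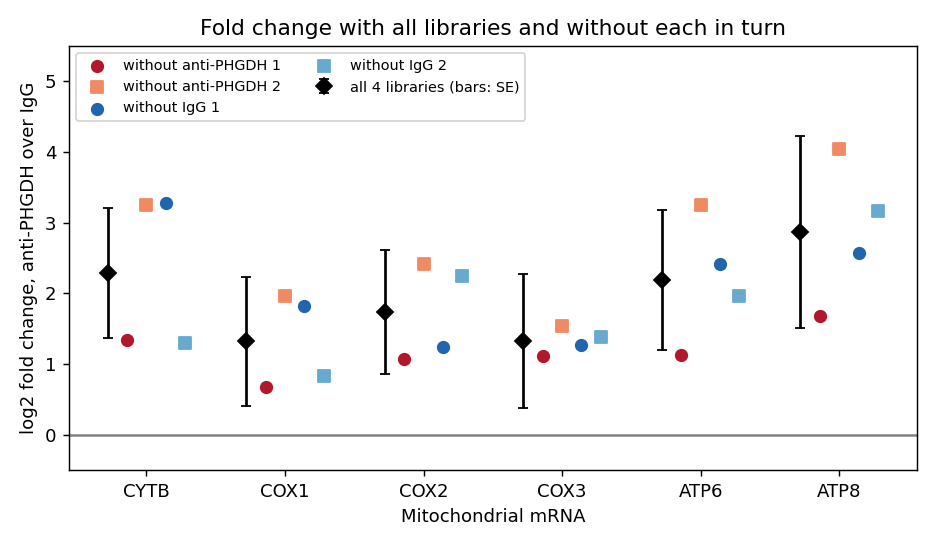
Log2 fold change of anti-PHGDH over IgG on the log2(CPM + 1) scale for each of the 6 mRNAs, with all 4 libraries (black, bars are the SE from limma) and without each library in turn (coloured points). All points lie above 0; COX3 moves least (1.12 to 1.54), and ATP8 moves most (1.68 to 4.05).

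The make-up of the mitochondrial reads differed between the antibodies in the opposite sense. The 13 mRNAs gave from 99.7% to 99.98% of the reads assigned to mitochondrial genes. The mitochondrial rRNA RNR1 had 0 reads in each library, which allows up to 3 reads, and RNR2 had from 2 to 6. The 6 mRNAs took 56.8% (95% Wilson interval 56.7 to 56.9%) and 68.8% (68.5 to 69.0%) of the mitochondrial reads in anti-PHGDH replicates 1 and 2. They took 87.8% (87.6 to 88.0%) and 83.2% (82.9 to 83.5%) in IgG replicates 1 and 2. Both anti-PHGDH libraries were thus below both IgG libraries. The means were 62.8% ± 8.47 and 85.5% ± 3.24 (SD, n = 2 each), a difference of -22.8 percentage points. With ND4 left out of the mitochondrial reads, since its anti-PHGDH values are not whole reads, the share of the 6 was 76.5% and 83.1% with anti-PHGDH, and 94.5% and 91.9% with IgG. The groups still did not overlap, and the difference was -13.4 percentage points. The intervals cover counting error only, and PCR copies may be counted among the reads.

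The complex I mRNAs, which encode membrane subunits of NADH dehydrogenase, took up the rest. For each read of a complex I mRNA there were 1.32 and 2.22 reads of the 6 mRNAs with anti-PHGDH, and 7.22 and 5.02 with IgG. Without ND4 these ratios were 3.27 and 5.03 with anti-PHGDH, and 17.3 and 11.6 with IgG. The 7 complex I mRNAs had a median log2 fold change of 3.50 against 1.96 for the 6, and 6 of the 7 were at least 2-fold higher in every pair, ND3 being the exception. 0 of the 7 passed the threshold (limma adjusted p from 0.365 to 0.713), though ND4 and ND5 did in some of the alternative fits given below. Scaled to complex I reads in each library, the 6 had a median log2 fold change of -1.53, against -1.57 over all genes tested. With that scaling 0 of the 6 passed the threshold (limma adjusted p from 0.894 to 0.977). The number of libraries limits this test, and the spread it used, an SE of 1.53 for COX1, comes from the trend across genes.

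**Figure D3:**
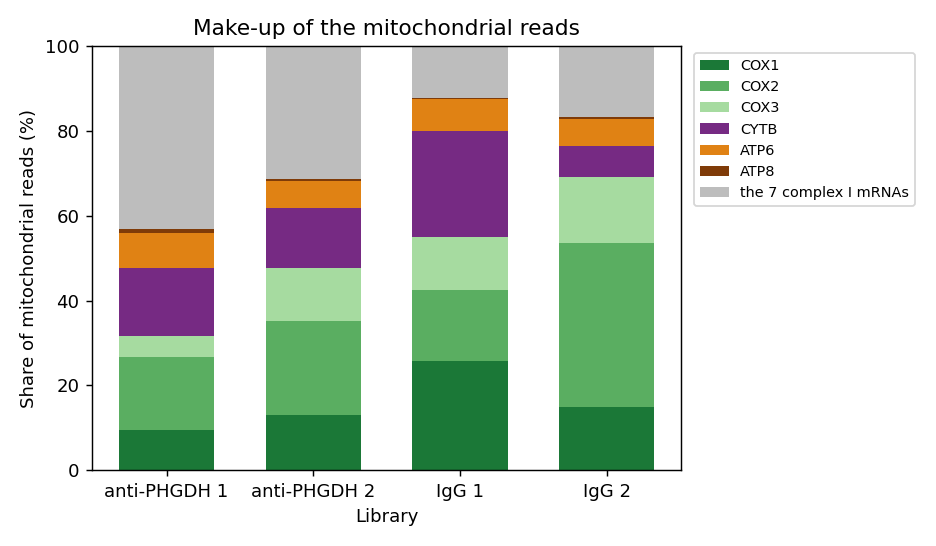
Share of all mitochondrial reads (%) taken by each of the 6 mRNAs and, in grey, by the 7 complex I mRNAs together; each bar is a library. The grey part is 43.2% and 31.0% in the anti-PHGDH libraries and 12.2% and 16.6% in the IgG libraries, and the purple CYTB part runs from 7.28% to 25.0% between the IgG libraries.

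By complex, the shares followed different patterns. The complex IV mRNAs took 31.6% and 47.7% of mitochondrial reads with anti-PHGDH and 54.9% and 69.0% with IgG, without overlap between the groups. The complex V mRNAs took 9.11% and 6.86% with anti-PHGDH and 7.88% and 6.92% with IgG, and the groups overlapped. CYTB took 16.0% and 14.2% with anti-PHGDH, and 25.0% and 7.28% with IgG, so the IgG values lay on either side of both anti-PHGDH values. The CYTB difference between the means was 1.90 points without ND4, against -1.035 points with it.

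Among single genes, COX1 was the only member whose share was lower with anti-PHGDH without overlap. It took 9.57% and 12.96% with anti-PHGDH and 25.6% and 14.9% with IgG. ATP8 was the only member with a higher share in both, at 0.832% and 0.535% against 0.303% and 0.526%. The values of the libraries numbered 2, 0.535% and 0.526%, lie within each other's counting intervals. Of all genes tested, 21.4% were lower and 2.24% higher without overlap when scaled to the mitochondrial reads, so 1 of 6 in either direction is no more than a description. Among the complex I mRNAs 5 of 7 had the higher share without overlap.

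COX2, COX3, ATP6 and CYTB overlapped. COX2 took 17.0% and 22.2% with anti-PHGDH and 16.8% and 38.7% with IgG, and its share in IgG replicate 2 was the highest of any mitochondrial gene in any library. COX3 took 5.05% and 12.5% with anti-PHGDH and 12.5% and 15.5% with IgG, with anti-PHGDH replicate 1 apart from the other libraries. ATP6 was the most even, at 8.28% and 6.32% with anti-PHGDH and 7.58% and 6.39% with IgG. After scaling to the mitochondrial reads, the fitted log2 fold changes ran from -0.81 for COX1 to 0.73 for ATP8, with a median of -0.17 for the 6 and -0.21 for all genes tested, and 0 of the 6 and 0 genes in all were called (limma adjusted p = 1.00 for each of the 6). That fit gave 1 gene higher and 71 genes lower when p was left unadjusted (threshold 0.05), and 0 of the 6. edgeR with the mitochondrial reads as library size also called 0 of the 6.

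Ratios between members within a library do not depend on the scaling. COX1 over COX2 was 0.563 and 0.584 in the anti-PHGDH libraries, a close match, and 1.53 and 0.384 in the IgG libraries. CYTB over COX2 was 0.943 and 0.640 with anti-PHGDH and 1.49 and 0.188 with IgG, the widest range of the member ratios computed (7.91-fold). COX3 over ATP6, neighbours on the precursor, was 0.610 and 1.98 with anti-PHGDH and 1.64 and 2.42 with IgG. ATP8 over ATP6, which share an mRNA, was 0.100 and 0.0847 with anti-PHGDH and 0.0399 and 0.0824 with IgG. For these ratios the IgG libraries bracketed both anti-PHGDH libraries in the case of COX1 over COX2 and CYTB over COX2.

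Levels of different genes were compared per kb of annotated gene length. COX2 was the first of the 6, and of all 13 mitochondrial mRNAs, in each library, at 71627 and 28220.0 CPM per kb with anti-PHGDH and 9504 and 19051 CPM per kb with IgG. ATP8 was the last of the 6 in each library, at 11581 and 2248 CPM per kb with anti-PHGDH and 566 and 856 CPM per kb with IgG. The highest over the lowest per kb was 6.18 and 12.6 with anti-PHGDH and 16.8 and 22.2 with IgG. COX2 stayed first and ATP8 last in all 4 libraries when only bases not shared with another gene were counted, and when shares of the 13 mRNAs per kb were used.

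The order between them varied. In the anti-PHGDH means COX2 was followed by CYTB at 25664 ± 20987, ATP6 at 21551 ± 19069, COX3 at 16217 ± 3304, COX1 at 12597 ± 7481 and ATP8 at 6914 ± 6600 CPM per kb (SD, n = 2 each). The values of neighbours in this order overlapped across libraries, but within both anti-PHGDH libraries COX2 was above CYTB, CYTB above ATP6, ATP6 above COX1 and COX1 above ATP8, and only COX3 changed place. In the IgG means COX2 at 14277 ± 6750 was followed by COX3 at 6400.1 ± 355, CYTB at 5319 ± 4482, COX1 at 4839 ± 2252, ATP6 at 3733 ± 810 and ATP8 at 711 ± 205 CPM per kb (SD, n = 2 each). The values of COX3, CYTB, COX1 and ATP6 overlapped from each neighbour to the next across the IgG libraries, while those of COX2 and COX3, and of ATP6 and ATP8, did not. COX1 was above ATP6 within both IgG libraries, by 3246 against 3161 CPM per kb in replicate 2, where the order turned when only bases not shared with another gene were counted. CYTB moved from the second place in IgG replicate 1 to the fifth in IgG replicate 2.

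**Figure D4:**
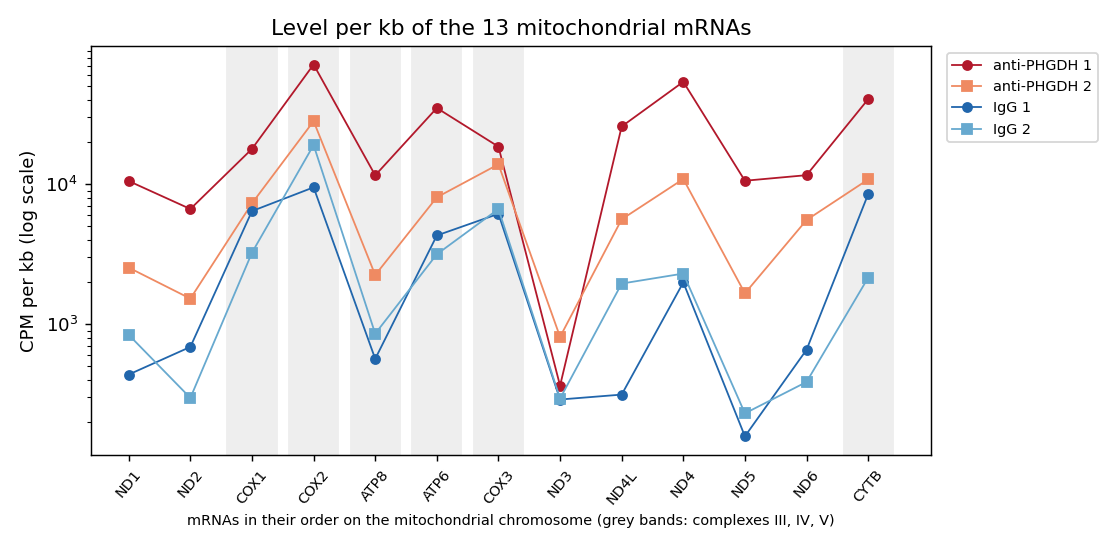
Level per kb (CPM per kb of annotated length, log axis) of the 13 mitochondrial mRNAs in their order on the chromosome; each line is a library and the grey bands mark the 6 mRNAs of complexes III, IV and V. COX2 is the peak of every line, and the anti-PHGDH lines lie farther above the IgG lines at ND4 and ND5 than at COX1 or COX3.

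The nuclear mRNAs of the same complexes did not share the higher level. Of the listed nuclear subunits, 8 of 9 for complex III, 11 of 11 for complex IV and 17 of 18 for complex V passed the filter on low values, and 0 of them was called in either direction (limma adjusted p from 0.677 to 0.980). Their median log2 fold changes were -0.14, -0.56 and -0.23, against 1.92 for all genes tested. Only 1 of these genes, in complex V, had both anti-PHGDH libraries above both IgG libraries (38.3% of all genes tested).

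Summed over the nuclear complex IV mRNAs, the anti-PHGDH libraries held 3791 and 13436 CPM and the controls 5400.0 and 18951 CPM, so both libraries numbered 2 were above both numbered 1. The highest fold changes in complex IV were those of COX8A (3.69; 0 CPM in IgG replicate 1) and COX6B1 (1.41), and the lowest those of COX5A (-2.54) and COX7C (-1.59). In complex III they were UQCRC1 (4.64; 0 CPM in IgG replicate 1) and CYC1 (3.12), and UQCRH (-1.49) and UQCRB (-1.36). In complex V they were ATP5F1A (1.73) and ATP5MC2 (1.26), and ATP5MK (-1.76) and ATP5PF (-1.73). A fold change of a gene at 0 in a library depends on the pseudocount, and CYC1 rests on 0.774 CPM in IgG replicate 1. Without that library the upper-end genes of the 3 complexes lay between -1.06 (COX6B1) and 0.03 (UQCRC1), and the lower-end genes between -2.36 (COX7C) and -1.16 (UQCRB).

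Assembly factors and factors for mitochondrial RNA and translation gave the same count of calls. Of 29 listed assembly factors, which insert haem, copper or subunits into the complexes, 27 were tested and 0 called, with a median log2 fold change of 0.47. BCS1L (3.73) and COX10 (3.54), both at 0 in IgG replicate 1, were at the upper end and TMEM70 (-2.77) and COX20 (-1.89) at the lower end. Of 29 listed factors for mitochondrial RNA and translation, 28 were tested and 0 called, with a median of 1.43. POLRMT (2.66), the mitochondrial RNA polymerase and TFAM (2.56), which packages mitochondrial DNA, were the highest, both at 0 in IgG replicate 1. GRSF1 (-2.77), which binds mitochondrial RNA, and TRMT10C (-2.04), a subunit of the enzyme that cuts the 5′ end of mitochondrial tRNAs, were the lowest. GRSF1 measured 51.7 and 97.0 CPM in the anti-PHGDH libraries but 2793 and 84.8 CPM in the controls. The named values of both lists rest largely on IgG replicate 1. Without it they were -0.26 for GRSF1, -0.72 for TRMT10C, -0.38 for TMEM70 and -0.26 for COX20, and 0.38 for BCS1L, 1.99 for COX10, -0.46 for POLRMT and -0.91 for TFAM.

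The nuclear genes whose profile over the 4 libraries was most like the summed level of the 6 mRNAs were AK4, OXA1L, POLD2 and PGAM1. Likeness was the root mean square difference of centred log2(CPM + 1) values, over 1550 nuclear genes with at least 20 CPM in each library, and it was 0.17, 0.24, 0.24 and 0.26 for these genes. It was 0.31 for COX1 and 0.74 for ATP8, the nearest and the farthest of the 6 from their own sum. OXA1L, which inserts proteins into the inner mitochondrial membrane and was in the list of translation factors, gave 369 and 178 CPM in anti-PHGDH libraries, against 105 and 98.1 CPM in the controls. AK4, a mitochondrial adenylate kinase, gave 240 and 78.1 CPM in anti-PHGDH libraries, against 60.9 and 45.0 CPM in the controls.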

How the data were processed

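RIP-seq libraries of 2 anti-PHGDH and 2 IgG precipitations from HEK293T were prepared with a low-input cDNA kit and sequenced for 150 bases from each end, per the labels' protocols. The authors deposited 1 table of CPM values per library, printed to 3 decimals. Per the submitters' processing notes, STAR 2.5.4b, featureCounts and hg38 were used; annotation, strand, multimapping, duplicates and filters are not given in the sources used here. The RefSeq table of GRCh38.p14 gave the mitochondrial genes and their lengths, and 93.8% of the deposited symbols matched it. Reads were recovered from the CPM steps: from 99.98% to 100% of values above 0 were whole within the rounding. The value of 1 read ran from 0.258 to 0.822 CPM.

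Groups were compared on log2(CPM + 1) by limma 3.58.1 in R 4.3.3, two-sided, with the intensity trend. Genes had to reach 5 CPM in 2 libraries or more, which 9524 did, and p-values were adjusted over them by Benjamini-Hochberg (threshold 0.05). Fold changes are on that scale. The prior degrees of freedom were infinite, so SEs follow the trend and not the gene. A second fit first subtracted each library's log2 mitochondrial total. edgeR 4.0.16 and DESeq2 1.42.0 on recovered reads, scalings, filters, pseudocounts, a replicate block and leaving out each library were alternatives. The procedure was tested on simulated data that did not hold the zeros of IgG replicate 1, so that test does not cover such a library. Named genes were the 6 mRNAs, the 2 highest and 2 lowest fold changes of each nuclear list and the 4 genes of most similar profile. Genes with a value that was not whole reads were also named, and complex I mRNAs at an order, an extreme or a call. The members, lists and tests were chosen with earlier results of these data known.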

Additional observations from a re-analysis of the deposited data

How the results depend on the processing

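The sum of the 6 mRNAs, and each of them, was higher in both anti-PHGDH libraries, and the share of the 6 in mitochondrial reads was lower, by 16.8 to 28.7 percentage points whichever library was left out (-28.7 to -16.8; -26.8 without CYTB, and -13.4 without ND4, which held the largest part of the complex I reads). As a percent of complex I reads the difference was -435. With 2 libraries a group, depth is not the main limit: the lowest member value rests on 280 reads.

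Centring on library medians gave a median log2 fold change of -0.53 for the 6, with CYTB at -0.20, COX1 at -1.17, COX2 at -0.76, COX3 at -1.17 and ATP6 at -0.31, a shift that follows from the zeros of IgG replicate 1. Leaving out 1 library without centring moved the uncentred median (1.96) between 1.12 (without anti-PHGDH replicate 1) and 2.83 (without anti-PHGDH replicate 2). The number of the 6 called was 3 without a filter (CYTB, COX2 and ATP6, limma adjusted p = 2.1e-08, 2.1e-07 and 0.0069). In that fit 6 of 18730 genes were called higher, the complex I mRNAs ND4 and ND5 among them (limma adjusted p = 1.5e-20 and 9.5e-05). Its SEs follow the trend and not the gene. The CYTB SE was 0.33 there, while the within-group SD of its log2 values was 1.37. Without IgG replicate 2 the log2 fold change of ATP8 was 3.16, against a median of 3.60 over all genes tested. The causes were not tested.

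With the replicate block the number of the 6 called was 1 (CYTB, limma adjusted p = 0.0072, again with an SE from the trend). In all, 4 genes were called higher with it, ND4 and ND5 among them (limma adjusted p = 3.3e-08 and 6.1e-04). Deviations of same-numbered libraries correlated at 0.0058 over 9524 genes, with 2 pairs. Since 61.9% of these genes were at 0 in IgG replicate 1, this cannot show whether the numbers pair the libraries. The block changed no other call among the 6, in limma or in edgeR, and 0 of the 6 were called with it relative to mitochondrial reads.

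Genes called higher numbered 11 at a pseudocount of 0.1, 3 with the filter at 1 CPM and 6 with none, 3 in CPM without mitochondrial genes, 3 with a robust trend, and 0 after centring, with no trend, and in DESeq2 and edgeR, blocked by replicate or not. Without 1 library they ran from 0 to 7129 and those lower from 0 to 1032, both highest without IgG replicate 2.

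Relative to mitochondrial reads, the median of the 6 (-0.17) was -1.53 relative to complex I mRNAs, -0.30 in edgeR and -0.36 to -0.12 without 1 library. The median of all genes tested (-0.21) was -1.57, -0.97 and -2.09 to 1.56 in the same settings. Relative to complex I mRNAs CYTB was at -1.20, ATP6 at -1.31 and ATP8 at -0.63, and CYTB was at -0.095 in edgeR. Without 1 library CYTB ran from -0.73 to 1.05, COX2 from -0.99 to 0.21 and ATP6 from -0.14 to 0.25, and their share differences from -9.91 to 7.84, -19.1 to 2.80 and -0.66 to 1.30 points. Without ND4 the CYTB share difference was 1.90 points. As percents of complex I reads, ATP6 and ATP8 differed by -30.6 and -1.0 points.

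The number of the 6 at least 2-fold higher in every pair (2, against 9.3% of all genes tested) was 0 at 4-fold (1.84%). It was 2 without anti-PHGDH replicate 1 (11.5% of all genes tested) and 6 without anti-PHGDH replicate 2 (21.9%). Without IgG replicate 1 it was 5 (10.0%), and without IgG replicate 2 it was 3 (75.7%). Adding reads of nuclear pseudogenes was not run, since the tables hold 0 such symbols. Leaving CYTB out in IgG replicate 2, leaving ND4 out of the shares, leaving IgG replicate 1 out for the named nuclear genes, and edgeR and the block relative to mitochondrial reads, were chosen after seeing the data. A group left with 1 library is assumed to vary like the other.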

Other observations

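Mitochondrial tRNAs, which are short and lie between the mRNAs, had 413 and 301 reads in the anti-PHGDH libraries, and 34 and 90 reads in the controls, over all 22 genes. As a share of mitochondrial reads that was 0.0426% and 0.285% with anti-PHGDH and 0.0227% and 0.169% with IgG, so both libraries numbered 2 were above both numbered 1. In IgG replicate 2 the 3 values that were not whole reads were those of CYTB, BECN1 and ATF4. They summed to 4786 reads within the rounding of the deposited values. In each anti-PHGDH library such values were those of BECN1 and ND4. These were 2182.072 and 250060.929 reads in replicate 1, and 712.004 and 18270.996 reads in replicate 2.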
